A study of Mus musculus with 4 samples.

Results

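Imprinted genes outside the Dlk1-Dio3 domain were followed in mouse ear fibroblasts with high or low AF357425, which is a small nucleolar RNA (snoRNA) of the C/D box class encoded in an imprinted domain itself. The 37 genes were picked by name and found by pairing the Ensembl identifiers of the count tables with GRCm38 symbols. Each of the 37 matched 1 identifier, of 55536 genes in the tables.

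An imprinted gene is transcribed mainly from the chromosome copy inherited from a given parent, because a control region nearby was methylated in the egg or in the sperm. Many imprinted genes set growth before birth: as a rule those read from the father's copy promote it and those read from the mother's copy restrain it. Several imprinted domains contain a long noncoding RNA that silences its neighbours on the same chromosome copy. In many fibroblasts the parent-specific pattern persists although the expression level is far below that of the fetus. The counts used here add up both copies, so they carry no information on which copy was read.

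All 4 groups were primary fibroblasts from ear clippings of C57BL/6 mice, held with KN93 for 48 h and then transfected for 24 h, and each group was 1 library. AF357425-High whole-cell RNA, AF357425-Low whole-cell RNA, AF357425-High pulldown RNA and AF357425-Low pulldown RNA are the group names, the pulldown being made with an antibody against fibrillarin, the methyltransferase that works with C/D box snoRNAs. Ribosomal RNA was depleted from the pulldown RNA before sequencing. The characteristics call the states AF357425 overexpression and AF357425 inhibition, whereas the treatment protocol names gapmers against AF357425 or a scrambled control. Groups were taken from the titles, and neither the number of mice nor the sharing of cultures between libraries is given in the sources used here. With 1 library a group nothing could be checked against replicates. The 95% intervals reflect counting error alone and not variation between cultures. Reads lacked molecular identifiers and are not independent molecules, so the intervals can be too narrow even for counting error.

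Between libraries the gene-assigned reads ranged from 21693030 to 27832061 per library, and a count of 0 allows up to 3 reads, or 0.108 to 0.138 CPM (counts scaled to a common total of assigned reads). AF357425 had 0 reads in all 4 libraries, so the labelled states could not be checked on the target. Mitochondrial ribosomal RNA took 59.8% and 63.4% of assigned pulldown reads, against at most 0.0926% in whole-cell RNA. Fragments set aside because they matched more than 1 gene made up 8.54% and 9.38% of the pulldown libraries and 1.05% and 1.09% of the whole-cell libraries. All 10 fibroblast markers had reads in every library, and their sum was 41474 CPM in whole-cell RNA of AF357425-High and 51892 CPM in that of AF357425-Low. Sums for keratinocyte, endothelial, immune, muscle, adipocyte and melanocyte or Schwann cell markers were between 0.860 and 8.07 CPM there, with Krt1, Krt14, Cd3e, Ckm, Myod1, Dct and Tyr at 0 reads in both. The 8 chondrocyte markers summed to 289 CPM in AF357425-High and 203 CPM in AF357425-Low whole-cell RNA, and to 116 and 145 CPM in the pulldowns. In such bulk samples fewer cells of a type and less RNA per cell cannot be told apart.

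Reads for the 37 genes added up to 3108 CPM in AF357425-High and 3131 CPM in AF357425-Low whole-cell RNA. They came to 473 and 584 CPM in the AF357425-High and AF357425-Low pulldowns. In whole-cell RNA most of these reads came from 4 genes, which held 68.1% of them in AF357425-High and 70.4% of those in AF357425-Low. The 4 were Gnas, which encodes the alpha subunit of the stimulatory G protein, Igf2r, the receptor that takes up and degrades insulin-like growth factor 2, H13, a signal peptide peptidase, and Grb10, an adaptor that dampens insulin and IGF receptor signalling. These are shares of reads, and no transcript lengths were at hand to compare levels between genes. Of the 37 genes, 24 averaged 1 CPM or more in whole-cell RNA and 20 did so in the pulldowns, and these are called measured.

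**Figure D1:**
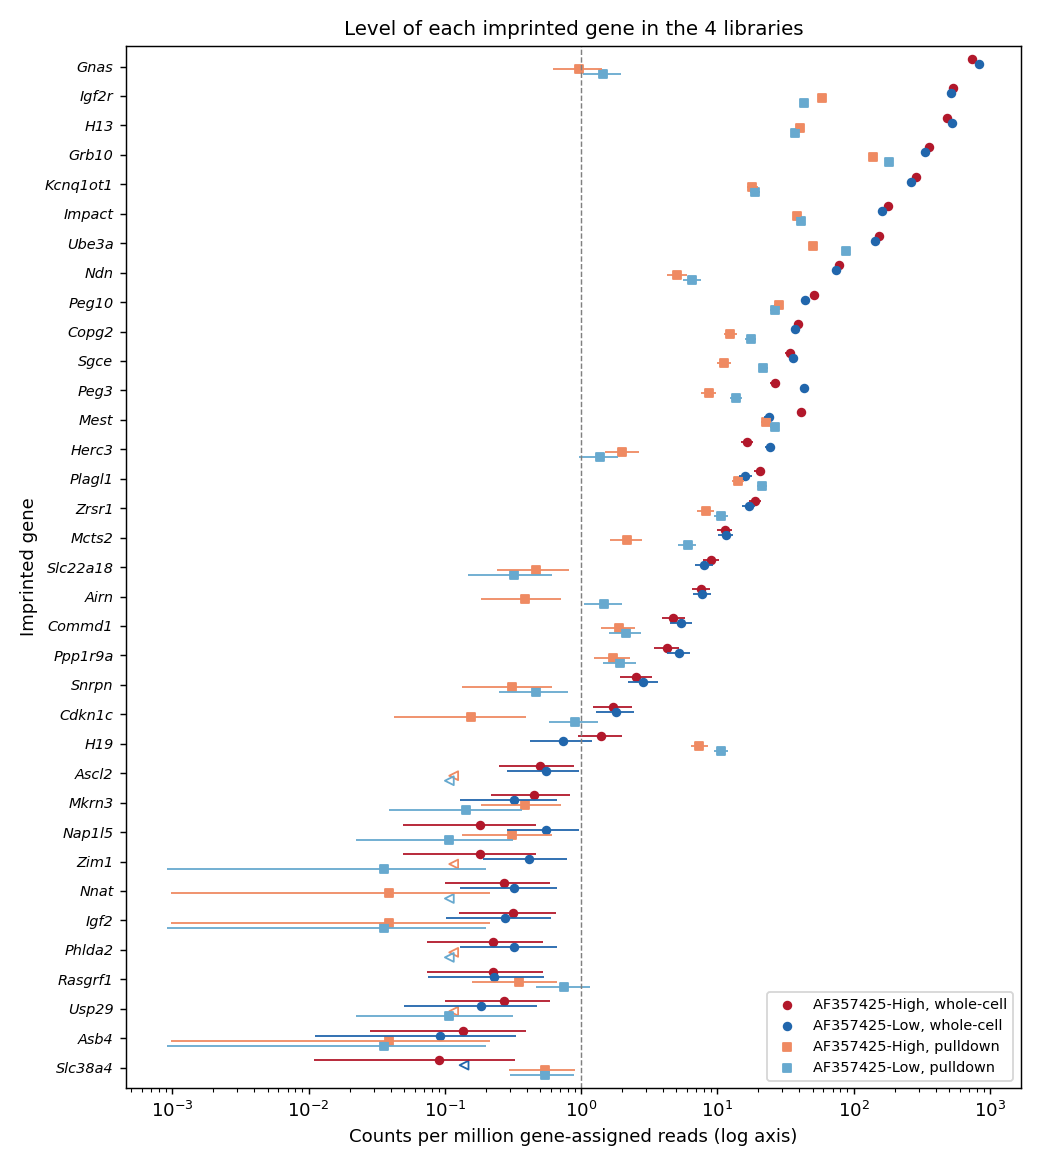
Gene-assigned reads in CPM (log axis) for the 35 imprinted genes with a read in any library, ordered by their whole-cell mean; circles are whole-cell libraries, squares pulldowns, lines exact Poisson 95% intervals from the counts, and open triangles the limit of 3 reads where a count was 0. Gnas lies at 737 and 832 CPM in whole-cell RNA and at 0.967 and 1.44 CPM in the pulldowns, while H19 lies at 1.40 and 0.738 CPM in whole-cell RNA and at 7.39 and 10.7 CPM in the pulldowns; counts are not corrected for gene length.

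The genes below 1 CPM in whole-cell RNA included the best-known fetal growth genes. Igf2, the growth factor whose paternal expression drives fetal growth, had 7 whole-cell reads in AF357425-High, 6 in AF357425-Low and 1 read in each pulldown. Phlda2, a maternally expressed gene that restrains placental growth, had 5 and 7 whole-cell reads and 0 in both pulldowns. Ascl2, a transcription factor of the placenta, had 11 and 12 whole-cell reads and 0 in both pulldowns. In whole-cell RNA the states thus differed by at most 2 reads for each of these genes.

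The other genes below the line were neural, placental or testis genes and intronic genes. Magel2, a partner of ubiquitin ligases in the hypothalamus, and Klf14, a Krüppel-like transcription factor, had 0 reads in all 4 libraries. Zim1 and Usp29, neighbours of Peg3, had 4 and 9 whole-cell reads and 6 and 4 whole-cell reads in AF357425-High and AF357425-Low, and 0 to 3 reads in a pulldown. Nnat, a small membrane protein of neurons and endocrine cells, had 6 and 7 whole-cell reads, against 1617 and 1698 for Blcap, whose intron holds it. Mkrn3, a ubiquitin ligase known for restraining puberty, had 10 and 7 whole-cell reads and 10 and 4 pulldown reads. Asb4, an adaptor of a ubiquitin ligase, had 3 and 2 whole-cell reads and 1 in each pulldown.

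For a pair of the low genes the pulldown held more reads than whole-cell RNA. Slc38a4, an amino acid transporter of liver and placenta, had 2 and 0 whole-cell reads but 14 and 15 pulldown reads in AF357425-High and AF357425-Low. Rasgrf1, an exchange factor for Ras in neurons, had 5 whole-cell reads in each state and 9 and 21 pulldown reads. With 0 whole-cell reads in AF357425-Low the Slc38a4 log2 ratio has no upper limit there, and its interval by library totals began at 1.48. In AF357425-High the Slc38a4 ratio was 2.58, with an interval of 0.46 to 5.76.

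The states were first compared in whole-cell RNA, which asks whether the state of the snoRNA goes with the expression of imprinted genes elsewhere in the genome. Of the 24 measured genes, 0 passed a line of 2-fold with the whole interval, where 0.244% of all 13519 measured genes did. Their ratios, after trimmed mean of M values (TMM) scaling, ran from -0.77 to 0.86 on the log2 scale with a median of 0.00, against -0.01 for all measured genes. Intervals lay wholly above 0 for 5 and wholly below 0 for 5 of the 24, and 38.5% of all measured genes had an interval on 1 side of 0.

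Mest, which encodes a membrane protein of the hydrolase family and is read from the paternal copy, was the measured gene with the largest ratio whose interval left out 0. The Mest gene spans chr6:30733506-30748466 in RefSeq on GRCm38.p6, the build of all positions given here. It had 41.1 CPM (908 reads) in AF357425-High and 24.1 CPM (522 reads) in AF357425-Low whole-cell RNA, a log2 ratio of 0.71 (95% interval 0.55 to 0.87). In the pulldowns Mest had 22.9 and 26.3 CPM and a ratio of 0.09 (-0.06 to 0.25). By library totals the AF357425-High whole-cell library was the high value, and the other 3 libraries lay between 22.9 and 26.3 CPM. That order of the 2 kinds of library depends on the scaling. In AF357425-High the Mest ratio of pulldown to whole-cell RNA was below 0 by library totals and above 0 with TMM. Chondrocyte markers moved the same way in whole-cell RNA, 289 against 203 CPM in sum with 5 of 5 measured markers above 0, and their part in the Mest value was not tested.

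Peg3, a zinc finger transcription factor expressed from the paternal copy, lay at the other end, at chr7:6703892-6730462. It had 26.4 CPM (584 reads) in AF357425-High and 43.2 CPM (937 reads) in AF357425-Low, a ratio of -0.77 (-0.92 to -0.62). Its pulldown levels, 8.62 CPM (223 reads) and 13.7 CPM (381 reads), differed in the same direction with a ratio of -0.37 (-0.62 to -0.13). AF357425-Low thus held the higher Peg3 value in both kinds of library, and the fibroblast marker sum was also higher in AF357425-Low whole-cell RNA. Most of that sum was Fn1, with 31428 CPM in AF357425-High and 40328 CPM in AF357425-Low. Of 9 measured fibroblast markers 7 had whole-cell ratios below 0 and 2, Pdgfra and Thy1, above 0. The part of that marker difference in the Peg3 value was not tested. Usp29, a deubiquitinase gene that starts 96 bases from Peg3 on the other strand, was too sparse for a comparison.

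Peg3 and Mest had the lowest and the highest whole-cell ratio among the genes whose interval left out 0, so the sequence at their starts is shown, from RefSeq on GRCm38.p6, together with that of Mcts2, which had the lowest pulldown ratio. Capitals mark a GC box (GGGCGG or its reverse complement CCGCCC) or a CCAAT box (CCAAT or ATTGG).
Peg3 to Usp29, the 96 bases between the genes, chr7:6730463-6730558, minus strand: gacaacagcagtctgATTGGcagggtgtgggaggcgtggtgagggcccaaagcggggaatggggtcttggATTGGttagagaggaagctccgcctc
Mest, 250 bases before the second of its 3 listed starts, chr6:30737800-30738049, plus strand: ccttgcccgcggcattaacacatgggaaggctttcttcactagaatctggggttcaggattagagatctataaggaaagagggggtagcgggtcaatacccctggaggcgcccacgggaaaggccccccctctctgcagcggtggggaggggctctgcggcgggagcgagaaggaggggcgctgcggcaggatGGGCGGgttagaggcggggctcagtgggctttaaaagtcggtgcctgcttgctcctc
Mcts2, 250 bases before its start, chr2:152686898-152687147, plus strand: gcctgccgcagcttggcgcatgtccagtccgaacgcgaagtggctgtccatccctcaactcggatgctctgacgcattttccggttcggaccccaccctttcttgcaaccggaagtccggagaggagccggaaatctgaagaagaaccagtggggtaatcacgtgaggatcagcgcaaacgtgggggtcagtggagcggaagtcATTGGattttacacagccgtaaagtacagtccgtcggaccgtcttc
The stretch between Peg3 and Usp29 held 2 CCAAT boxes and 0 GC boxes, that of Mest 1 GC box and 0 CCAAT boxes, and that of Mcts2 1 CCAAT box and 0 GC boxes. CpG dinucleotides, the sites at which DNA is methylated, numbered 3, 14 and 20 in the 3 stretches, which differ in length (96, 250 and 250 bases). In the 300-base promoter windows of Peg3, Mest and Mcts2 at these starts they numbered 13, 17 and 25. Promoter windows of 300 bases were listed for 31 of the 37 genes, 48 windows in all, with a median of 15.5 CpG against 7 over all 32851 windows. A GC box was found in 27 of the 48 windows and in 35.7% of all windows, and a CCAAT box in 17 of 48 and in 37.4% of all. These are matches of letters and not evidence of a bound factor.

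The other 4 genes whose whole-cell interval lay above 0 were Plagl1, Peg10, Impact and Kcnq1ot1. Plagl1, a zinc finger factor known for regulating other imprinted genes, had 454 and 348 reads, or 20.6 and 16.0 CPM, and a ratio of 0.29 (0.09 to 0.50). Peg10, a gene derived from a retrotransposon, had 1134 and 947 reads and a ratio of 0.17 (0.04 to 0.30). Impact, a regulator of translation under amino acid stress, had 0.09 (0.02 to 0.16), and the silencing RNA Kcnq1ot1 had 0.07 (0.02 to 0.12). Under 4 scalings the signs of these 4 genes stayed above 0 in whole-cell RNA.

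Below 0, Herc3, a ubiquitin ligase of the HERC family, had 366 reads (16.6 CPM) in AF357425-High and 530 reads (24.4 CPM) in AF357425-Low, a ratio of -0.62 (-0.82 to -0.43). Gnas had 737 and 832 CPM and a ratio of -0.24 (-0.27 to -0.21), H13 had 483 and 525 CPM and -0.19 (-0.22 to -0.15), and the sarcoglycan gene Sgce had 33.9 and 36.1 CPM and -0.15 (-0.30 to -0.01). The Sgce interval left out 0 in 1 of 4 scalings only. For the deep genes Gnas and H13 the counting error is small, so the narrow interval says little about variation between cultures.

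The remaining 14 measured genes had intervals across 0 in whole-cell RNA. Igf2r had 540 and 514 CPM (0.01, -0.03 to 0.04), Grb10 355 and 332 CPM (0.03, -0.01 to 0.08), and Ube3a, the ubiquitin ligase read from the maternal copy in neurons, 154 and 143 CPM (0.04, -0.03 to 0.12). Ndn, a MAGE family growth suppressor, had 77.6 and 74.0 CPM (0.00, -0.10 to 0.10). These 4 intervals reached at most 0.12 on the log2 scale. Under library totals the ratios of Igf2r, Grb10 and Ube3a were 0.07, 0.10 and 0.11, and their intervals left out 0 in 2, 3 and 2 of 4 scalings. H19, Airn, Copg2, Zrsr1, Commd1, Mcts2, Slc22a18, Ppp1r9a, Snrpn and Cdkn1c completed the group. Cdkn1c, the maternally expressed inhibitor of cyclin-dependent kinases, had 38 and 39 reads, and Slc22a18, a membrane transporter of the same domain, 199 and 173. Snrpn, a core protein of splicing particles in neurons, had 56 and 62 reads, and its partner Snurf, whose exons Snrpn shares, had 0, so the Snrpn count is uncertain.

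The states were next compared in the pulldown, which asks whether the RNA of imprinted genes in the fibrillarin pulldown differs between the states. Of 20 measured genes, 0 passed the 2-fold line, where 6.32% of all 10736 measured genes did, 3.43% upward and 2.9% downward. The median was -0.07 against -0.01 for all measured genes, and the range was -1.18 to 0.85. Intervals lay above 0 for 6 and below 0 for 7 of the 20, and of all measured genes 31.5% lay above 0 and 32.5% below, 64.1% together. Library totals in place of TMM moved every pulldown ratio by -0.29, which put 1 gene, Mcts2, past the line downward. Of all 10736 measured genes, 608 were then past it downward.

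Mcts2, a translation factor gene formed by retroposition in an intron of H13, had the lowest ratio. Mcts2 lies at chr2:152687148-152687946 within the H13 span, chr2:152669422-152708668. It had 2.17 CPM (56 reads) in the AF357425-High and 6.04 CPM (168 reads) in the AF357425-Low pulldown, a ratio of -1.18 (-1.65 to -0.74), or -1.48 by library totals. In whole-cell RNA both libraries had 251 reads and the ratio was -0.09 (-0.35 to 0.17). Its host H13 went the other way in the pulldown, with 40.1 and 36.9 CPM and a ratio of 0.42 (0.29 to 0.54), or 0.12 by library totals. The AF357425-High pulldown was thus the low library for Mcts2 and, by a small margin, the high library for H13. Fragments in the shared span could have been set aside as matching both genes, and the effect of that on Mcts2 was not tested.

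The Igf2r and Airn pair also split in the pulldown. Airn is the paternally expressed noncoding RNA that runs antisense through the start of Igf2r and silences Igf2r on that copy. Airn spans chr17:12741311-12859884 and Igf2r chr17:12682406-12769706. Airn had 10 reads in the AF357425-High and 41 in the AF357425-Low pulldown, a ratio of -1.63 (-2.80 to -0.61), with a mean under 1 CPM. Igf2r had 58.5 CPM (1513 reads) and 43.5 CPM (1210 reads), a ratio of 0.72 (0.61 to 0.83), or 0.43 by library totals. In whole-cell RNA Airn had 167 reads in both states and a ratio of -0.09 (-0.41 to 0.23), beside 0.01 for Igf2r. The spans share 28396 bases, and the sources used here do not give the strand setting of the counting, so reads of this pair are uncertain.

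**Figure D2:**
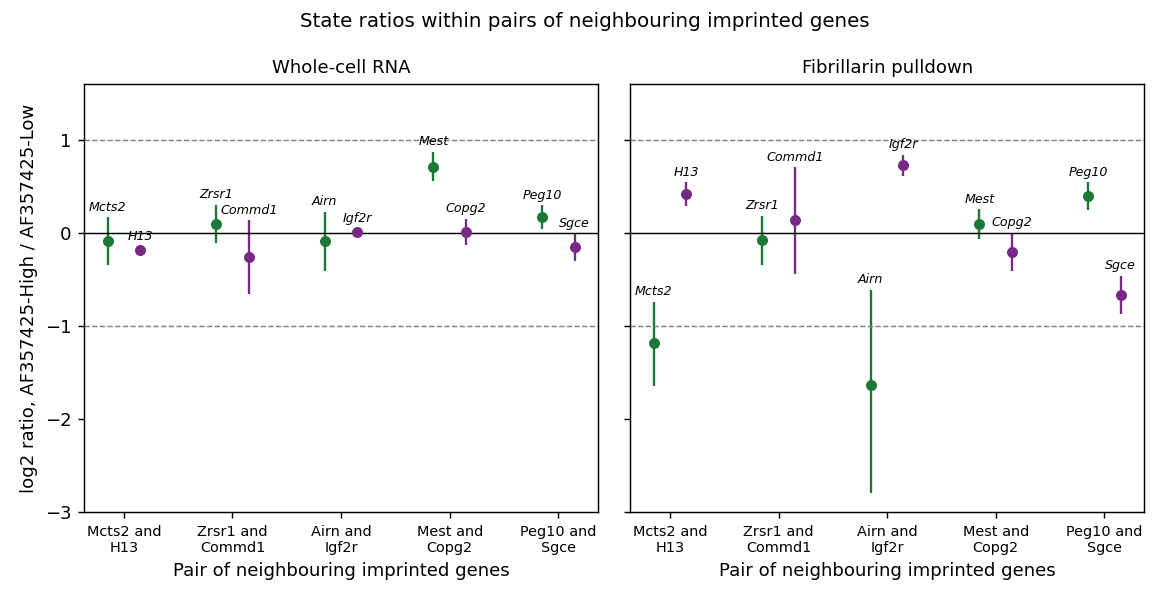
log2 ratio of AF357425-High to AF357425-Low for 5 pairs of neighbouring imprinted genes in whole-cell RNA (left) and in the fibrillarin pulldown (right), with TMM scaling; points are single ratios, vertical lines 95% intervals from the counts and dashed lines 2-fold. In the pulldown Mcts2 (-1.18) lies below H13 (0.42), Airn (-1.63, under 1 CPM) below Igf2r (0.72) and Sgce (-0.67) below Peg10 (0.39).

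Peg10 and Sgce start 101 bases apart on opposite strands and are both read from the paternal copy. The Peg10 level was 28.1 CPM (727 reads) in the AF357425-High and 26.3 CPM (732 reads) in the AF357425-Low pulldown, a ratio of 0.39 (0.24 to 0.54). Sgce had 11.2 CPM (289 reads) and 21.8 CPM (606 reads), a ratio of -0.67 (-0.87 to -0.46). By library totals Peg10 stood at 0.10 and Sgce at -0.96. Sgce reads per Peg10 read were 0.660 and 0.827 in whole-cell RNA of AF357425-High and AF357425-Low and 0.398 and 0.828 in the pulldowns. The AF357425-High pulldown was the library in which this pair departed from the other 3.

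Ube3a had 50.3 CPM (1301 reads) in the AF357425-High and 88.1 CPM (2453 reads) in the AF357425-Low pulldown, a ratio of -0.51 (-0.61 to -0.42). Plagl1 had 14.3 and 21.2 CPM and a ratio of -0.28 (-0.47 to -0.09), opposite in sign to its whole-cell ratio. Copg2, a coat protein subunit of Golgi vesicles, had 12.4 and 17.6 CPM and -0.21 (-0.41 to -0.00), and Grb10 had 138 and 183 CPM and -0.11 (-0.18 to -0.05). For each of these 4 genes the AF357425-High pulldown was the lower library, and the interval left out 0 under all 4 scalings.

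Herc3 had 2.01 CPM (52 reads) in the AF357425-High and 1.37 CPM (38 reads) in the AF357425-Low pulldown, a ratio of 0.85 (0.22 to 1.5). Its intronic neighbour Nap1l5, a nucleosome assembly protein gene, had 8 and 3 pulldown reads and 4 and 12 whole-cell reads. Impact had a ratio of 0.21 (0.09 to 0.34) and Kcnq1ot1 of 0.22 (0.04 to 0.41), and both turned negative by library totals, at -0.08 and -0.07. Cdkn1c had 4 reads in the AF357425-High and 25 in the AF357425-Low pulldown, a ratio of -2.24 (-4.23 to -0.71), and like Airn it was not among the measured genes there. Slc22a18 had 12 and 9 reads and Snrpn 8 and 13. Intervals of H19, Mest, Ndn, Gnas, Zrsr1, Commd1 and Ppp1r9a crossed 0 in the pulldown with TMM. The interval left out 0 in 2 of 4 scalings for H19, and in 1 of 4 each for Mest, Ndn and Zrsr1.

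**Figure D3:**
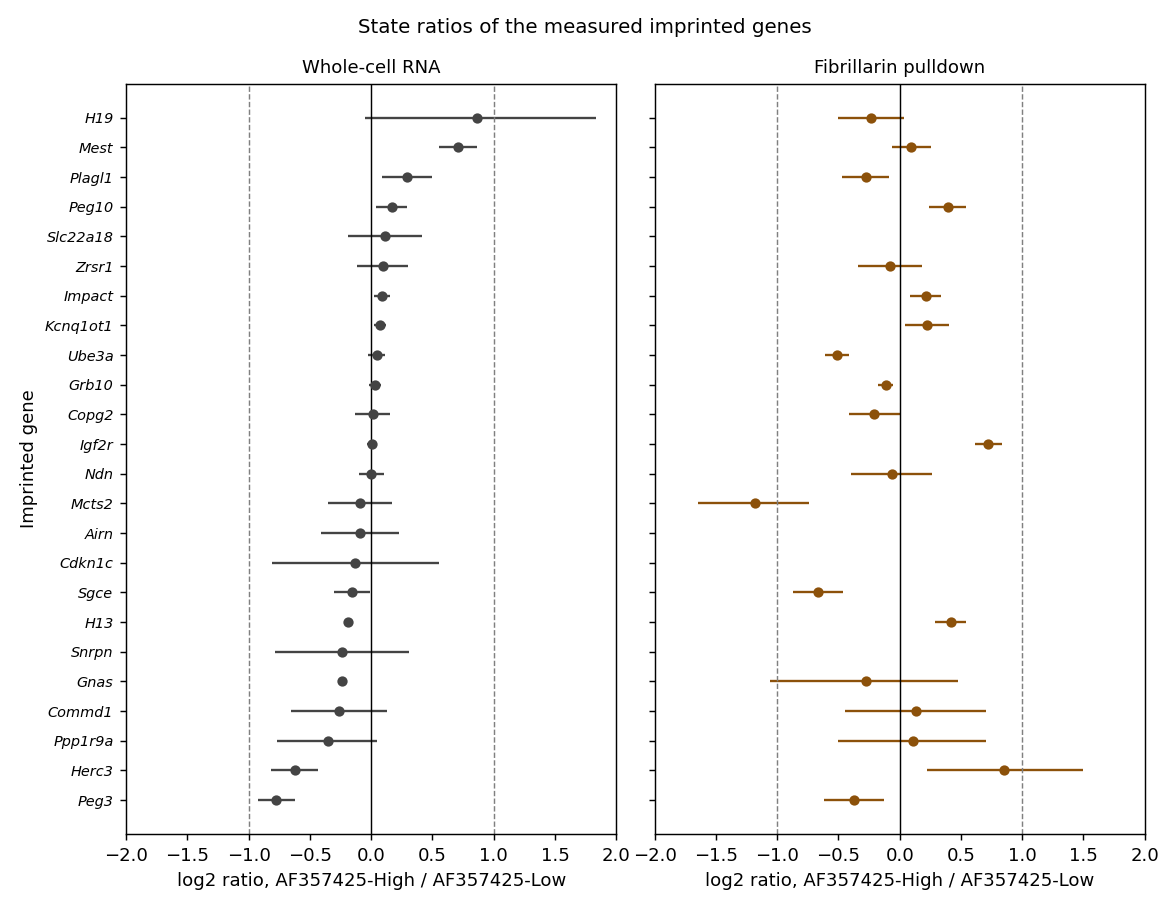
log2 ratio of AF357425-High to AF357425-Low, with TMM scaling, for the 24 imprinted genes measured in whole-cell RNA (left) and the 20 of them measured in the pulldown (right); points are single ratios, lines 95% intervals from the counts and dashed lines 2-fold. Whole-cell ratios run from -0.77 for Peg3 to 0.86 for H19, whose interval crosses 0, and no interval lies wholly beyond a dashed line in either panel.

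Zrsr1, a splicing factor gene that arose in an intron of Commd1, had 418 and 368 whole-cell reads and 212 and 296 pulldown reads. Commd1, known for copper handling and membrane recycling, had 105 and 118 whole-cell reads and 49 and 59 pulldown reads. With TMM neither gene had an interval that left out 0 in either kind of library. The ratios were then between -0.26 and 0.13 for the pair. Ppp1r9a, an actin-binding protein of neurons, had 94 and 113 whole-cell reads and 44 and 54 pulldown reads, with intervals across 0 as well. Ndn had 131 and 181 pulldown reads, or 5.07 and 6.50 CPM.

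The pulldown against whole-cell RNA of the same state asks which imprinted RNAs held a larger or smaller share of the pulldown library. None of the 4 libraries is a pulldown with a control antibody. RNA bound to fibrillarin and background in the pulldown therefore cannot be told apart. By library totals all measured genes had medians of -2.13 (AF357425-High) and -1.74 (AF357425-Low). Over the 24 imprinted genes measured it was -1.94 and -1.39. H19 was the single gene of the 24 past the 2-fold line upward in both states, where 1.56% of all 12795 measured genes were. Downward in both states were 11 of 24, where 59.7% of all measured genes were. The 11 were Gnas, Slc22a18, Herc3, H13, Kcnq1ot1, Igf2r, Ndn, Snrpn, Airn, Impact and Peg3.

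H19 is a maternally expressed long noncoding RNA that shares enhancers with Igf2 and is abundant in fetal tissue, and the gene lies at chr7:142575530-142578146. In whole-cell RNA of AF357425-High and AF357425-Low it had 1.40 CPM (31 reads) and 0.738 CPM (16 reads), and 7.39 CPM (191 reads) and 10.7 CPM (297 reads) in the pulldowns. The pulldown ratio was 2.4 (1.84 to 2.99) in AF357425-High and 3.85 (3.13 to 4.68) in AF357425-Low. Both pulldown libraries thus lay above both whole-cell libraries. Of 12458 genes with reads in all 4 libraries, 156 had a higher ratio in AF357425-High and 62 did so in AF357425-Low. The whole-cell values rest on few reads, and the interval of the whole-cell state ratio, 0.86 (-0.05 to 1.83), crossed 0 with TMM. It left out 0 in 1 of 4 scalings. Between the states the H19 pulldown ratio changed by -1.10 (-2.01 to -0.19) with TMM scaling.

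Chondrocyte markers lay on both sides in the pulldown. Cnmd, the cartilage protein chondromodulin, had 99 and 14 whole-cell reads and 381 and 520 pulldown reads in AF357425-High and AF357425-Low, and Cnmd and the cartilage link protein gene Hapln1 were past the line upward in both states. The other 3 measured markers lay below 0 in both, with -2.30 and -0.72 for Col2a1, -3.41 and -2.34 for Comp, which was past the line downward, and -1.11 and -0.63 for Sox9. In whole-cell RNA Col2a1 and Cnmd were past the line between the states, at 1.24 (1.12 to 1.36) and 2.73 (1.92 to 3.65). The marker sum in whole-cell RNA, 289 against 203 CPM, was higher in AF357425-High, as were the H19 reads. The part of cartilage cells in the H19 values was not tested.

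H19 and Mest each hold a microRNA, and their mature forms are shown because the reads of a host and its microRNA cannot be separated. The sequences are from RefSeq on GRCm38.p6, and capitals mark the seed, bases 2 to 8.
mmu-miR-675-5p in H19, chr7:142577112-142577133, minus strand: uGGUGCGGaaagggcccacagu
mmu-miR-675-3p in H19, chr7:142577078-142577099, minus strand: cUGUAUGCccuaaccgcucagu
mmu-miR-335-5p in Mest, chr6:30741314-30741336, plus strand: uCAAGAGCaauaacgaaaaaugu
mmu-miR-335-3p in Mest, chr6:30741354-30741375, plus strand: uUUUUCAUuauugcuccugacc
The 4 seeds differ from each other. The genes Mir675 and Mir335 were listed at 0 reads in all 4 libraries. Fragments over them could have been set aside as matching both host and microRNA, so these counts set no upper limit on their levels.

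Gnas, at chr2:174284320-174346744, had the lowest ratios. In whole-cell RNA of AF357425-High and AF357425-Low it had 737 CPM (16282 reads) and 832 CPM (18042 reads), and 0.967 CPM (25 reads) and 1.44 CPM (40 reads) in the pulldowns. The log2 ratio was -9.57 (-10.20 to -9.01) in AF357425-High and -9.18 (-9.66 to -8.73) in AF357425-Low. Of 12458 genes, 2 had a lower ratio in each state. The RefSeq span of Gnas overlaps Gnasas1 and Gm30189, and fragments that matched more than 1 gene were 8.54% and 9.38% of pulldown fragments against 1.05% and 1.09% in whole-cell RNA. Whether such fragments lowered the Gnas count was not tested. Over all genes, 3.64% of those with an overlapped span and 2.97% of those without had a ratio below -5 in AF357425-High, and 2.0% and 1.69% in AF357425-Low.

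Noncoding RNAs of 3 imprinted domains lay on both sides. Kcnq1ot1, the paternal RNA that silences the Cdkn1c domain, had 288 and 262 CPM in whole-cell RNA and 18.1 and 19 CPM in the pulldowns, with ratios of -3.99 (-4.13 to -3.86) and -3.79 (-3.92 to -3.66). The ratio of Airn was -4.29 (-5.38 to -3.37) in AF357425-High and -2.39 (-2.92 to -1.89) in AF357425-Low. Both silencing RNAs thus lay below the median of all genes in each state, while H19 lay above it. Kcnq1, whose intron holds Kcnq1ot1, had 0 whole-cell reads.

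Among messenger RNAs the ratios spread over several log2 units. Igf2r had -3.21 (-3.28 to -3.13) and -3.56 (-3.65 to -3.48), H13 had -3.59 and -3.83, and Ndn had -3.94 and -3.51 in AF357425-High and AF357425-Low. Slc22a18 stood at -4.28 and -4.62, Herc3 at -3.04 and -4.16 and Snrpn at -3.04 and -2.61. Closer to the median of all genes were Impact at -2.22 and -1.98 and Peg3 at -1.62 and -1.66. The first 6 of these genes lay below the median of all genes in both states, and Impact did so too by a small margin.

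Plagl1 and Mest had the highest ratios after H19. Plagl1 had -0.53 (-0.73 to -0.33) in AF357425-High and 0.40 (0.21 to 0.60) in AF357425-Low, and Mest had -0.85 (-1.0 to -0.70) and 0.13 (-0.04 to 0.29). Peg10 followed with -0.87 and -0.73, Grb10 with -1.36 and -0.86, Ube3a with -1.62 and -0.70 and Sgce with -1.60 and -0.73. Zrsr1 stood at -1.21 and -0.67, Copg2 at -1.66 and -1.08, Commd1 at -1.33 and -1.36 and Ppp1r9a at -1.32 and -1.42. All these values were above the median of all genes in their state. Mcts2 had -2.39 and -0.94 and Cdkn1c, with 4 and 25 pulldown reads, -3.48 and -1.0, so both lay below that median in AF357425-High and above it in AF357425-Low.

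**Figure D4:**
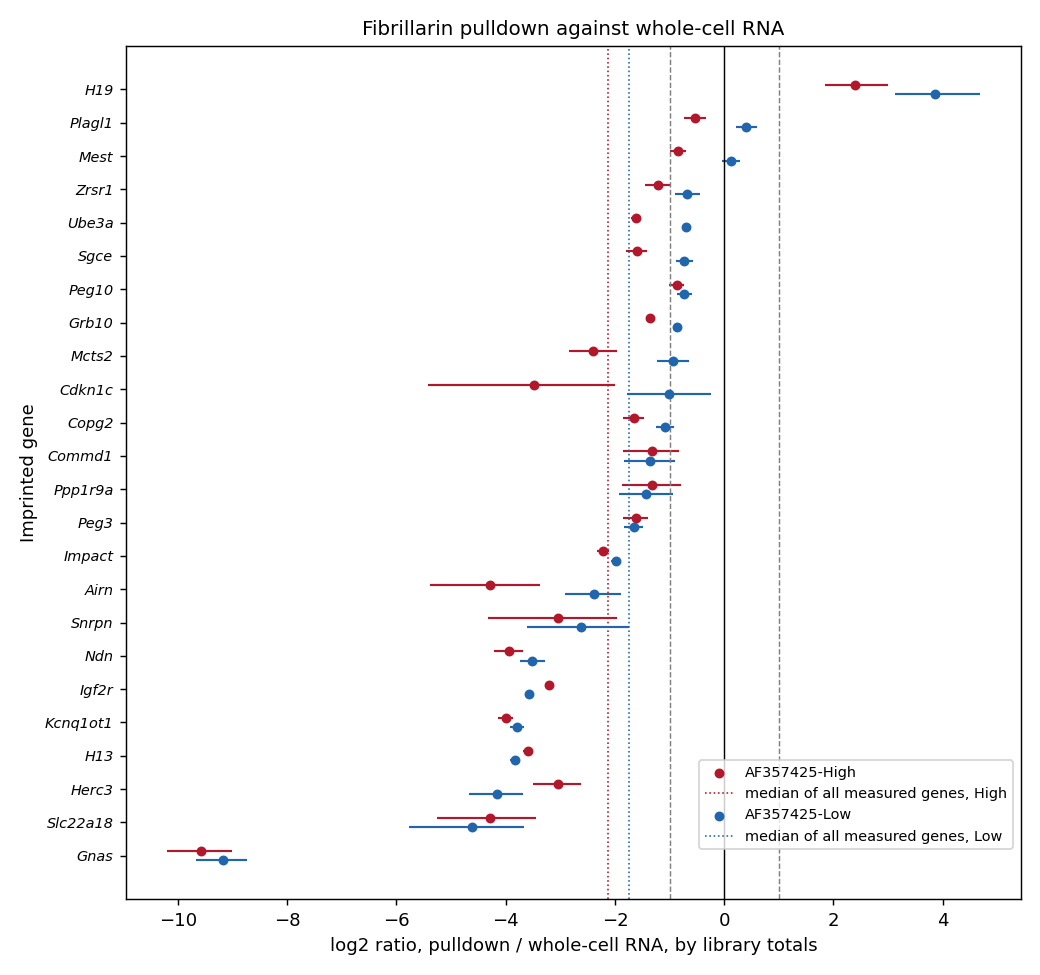
log2 ratio of pulldown to whole-cell CPM by library totals for the 24 imprinted genes measured, in AF357425-High (red) and AF357425-Low (blue); lines are 95% intervals from the counts, dotted lines the medians over all measured genes (-2.13 and -1.74) and dashed lines 2-fold. H19 lies at 2.4 and 3.85, Gnas at -9.57 and -9.18, and the other 22 genes between -4.62 and 0.40.

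The number of genes past the line downward depends on the scaling, since mitochondrial ribosomal RNA fills most of the pulldown. With TMM 6 of 24 were past it downward in both states in place of 11, namely Gnas, H13, Igf2r, Kcnq1ot1, Ndn and Slc22a18. Upward 2 were past it, H19 and Plagl1. The shares of all measured genes given above, 59.7% downward and 1.56% upward, are by library totals and do not apply to TMM. The TMM counts are given without shares of all genes, so they do not show whether the 24 genes differ from all genes. H19 had 4.24 and 5.28 with TMM in AF357425-High and AF357425-Low, and Gnas -7.73 and -7.75. Of the 23 genes below 0 by library totals in AF357425-High, 11 lay above 0 with TMM, between 0.19 for Copg2 and 1.32 for Plagl1: Commd1, Copg2, Grb10, Mest, Peg10, Peg3, Plagl1, Ppp1r9a, Sgce, Ube3a and Zrsr1. In AF357425-Low 10 of 21 did, with Cdkn1c and Mcts2 among them and without Mest, Peg3 and Plagl1. The direction of these genes against whole-cell RNA is therefore not settled, and Peg3 is the gene among them that was past the line by library totals in both states.

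How far this ratio moved between the states could be computed for the 21 genes with 10 reads or more in every library. None of the 21 passed the 2-fold line with the whole interval, and 4.31% of 11356 genes did, 2.65% upward and 1.66% downward. The median was -0.07, intervals lay above 0 for 5 and below 0 for 8, and of all genes 28.5% lay above and 28.2% below, 56.7% together. The lowest values were -1.54 (-2.59 to -0.50) for Airn, -1.10 for H19 and -1.09 (-1.60 to -0.59) for Mcts2. The highest was 1.48 (0.84 to 2.11) for Herc3, ahead of Igf2r at 0.72 (0.60 to 0.83). These values restate the state ratios of both kinds of library and are no separate measurement. By library totals the median became -0.43, beside -0.36 for all genes.

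Genes known as paternally expressed and genes known as maternally expressed, in some tissues at least, were described side by side. Ube3a, for which this is known in neurons, was kept in the maternal group. The counts do not show which copy was read in these fibroblasts. Of the 12 measured paternal genes in whole-cell RNA 7 had ratios above 0, with a median of 0.04, and of 12 maternal genes 6 did, with a median of -0.06. In the pulldown 4 of 10 paternal and 5 of 10 maternal genes were above 0, with medians of -0.07 and -0.00. The all-gene median was -0.01 in both comparisons. Pulldown-to-whole-cell medians were -1.92 and -2.35 in AF357425-High and -1.30 and -1.39 in AF357425-Low for paternal and maternal genes.

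A list of 42 other genes reported as imprinted in mouse gives the same comparison beyond the 37. In whole-cell RNA 30 were measured, with a median of -0.08 and 0 past the line, beside 0.244% of all measured genes. Smoc1, a matricellular protein, had 246 and 129 reads and a ratio of 0.84 (0.53 to 1.16), and Cmah, a sialic acid enzyme, had 90 and 175 reads and -1.05 (-1.43 to -0.68). In the pulldown 26 were measured, with a median of 0.30, and the chloride channel gene Ano1 was past the line with 28 and 120 reads and -1.70 (-2.35 to -1.10). That is 1 of 26, beside 6.32% of all measured genes. Blcap, the host of Nnat, had 183 and 539 pulldown reads and -1.16 (-1.41 to -0.91), and Dhcr7, the last enzyme of cholesterol synthesis, had 106 and 61 reads and 1.2 (0.73 to 1.68). Pulldown against whole-cell RNA put 21 of 30 past the line downward in both states and 0 upward, beside 59.7% and 1.56% of all measured genes. The 21 were Blcap, Sfmbt2, Nespas, Cd81, Tssc4, Nap1l4, Osbpl5, Trappc9, Peg13, Casd1, Pon2, Atp10a, Peg12, Qpct, Ano1, Tnfrsf23, Tnfrsf22, Ampd3, Bcl2l1, Dhcr7 and Pde10a. The change of the ratio between the states was past the line for Ampd3, an AMP deaminase, at 1.34 (1.07 to 1.61), which is 1 of 27 beside 4.31% of all genes.

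Genes that maintain imprints or silence imprinted domains were listed as well. In whole-cell RNA 20 of 23 were measured, with a median of 0.03 and 0 past the line, beside 0.244% of all measured genes. Uhrf1, which brings the maintenance methyltransferase to replicated DNA, had a ratio of -0.40 (-0.52 to -0.28) and Ctcf, the insulator protein of the H19 domain, 0.22 (0.11 to 0.33). In the pulldown 17 of 18 measured genes were below 0, with a median of -0.37 and 0 past the line. Of all measured genes 5455 of 10733 were below 0 there, with a median of -0.01 and 6.32% past the line. Tet1, an enzyme that oxidizes methylcytosine, had 161 (AF357425-High) and 477 (AF357425-Low) reads, a ratio of -1.17 (-1.43 to -0.91), Tet3 had -0.81 (-1.03 to -0.59), and the Polycomb gene Rnf2 had 0.23 (0.09 to 0.37). Pulldown against whole-cell RNA put 6 of 19 past the line downward in both states, beside the 59.7% of all genes: Dnmt1, Uhrf1, Trim28, Setdb1, Tet3 and Hnrnpk.

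Genes of IGF2 signalling were measured in both kinds of library, 17 of 17. Igfbp2, which binds and carries insulin-like growth factors, was the 1 gene past the line in whole-cell RNA, with 3171 and 1259 reads and a ratio of 1.24 (1.15 to 1.34). That is 1 of 17 in whole-cell RNA, beside 0.244% of all measured genes. Igfbp5 had 0.65 (0.61 to 0.70) and Igfbp6 -0.61 (-0.77 to -0.45) there. In the pulldown 0 of 17 were past the line, beside 6.32% of all measured genes. Igf2bp3, an RNA-binding protein named for Igf2 messenger RNA, had 43 and 147 reads and -1.37 (-1.90 to -0.87), and Igf2bp1 had 69 and 199 reads and -1.13 (-1.54 to -0.73). At the other end the kinase gene Akt2 had 382 and 291 reads and 0.79 (0.57 to 1.02). Against whole-cell RNA 10 of 17 were past the line downward in both states, near the 59.7% of all genes: Igf1r, Insr, Irs1, Irs2, Akt1, Akt2, Igf2bp2, Igfbp3, Igfbp4 and Igfbp6. With 1 read of Igf2 in each pulldown, Igf2 itself could not be compared.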

How the data were processed

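The submitters' processing notes list cutadapt 2.4, StringTie 1.3.4, HTSeq 0.9.1 and STAR 2.6.0c as tools and GRCm38 as genome, without their roles. The authors deposited whole-number fragment counts per gene, 1 column a library. The sources used here give neither annotation release nor strand setting. Summary lines without a gene stayed out of library totals.

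Symbols were paired with 55450 identifiers. State comparisons used TMM factors (edgeR 4.0.16, R 4.3.3), and pulldown against whole-cell RNA used library totals. Ratios have exact (Clopper-Pearson) 95% intervals, and changes over 4 libraries a normal approximation. The interval code was tested on simulated data. A gene passed the line where its whole interval lay beyond 2-fold. Overlaps come from RefSeq spans. The genes and lists were chosen with earlier results of these data known. Every gene of the 37 is named; of other imprinted genes, imprint maintenance and IGF2 signalling, genes past the line and at most the 2 highest and 2 lowest other ratios are, and markers serve as a check. Alternatives were other scalings, including DESeq2 1.42.0 size factors, and other filters.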

Additional observations from a re-analysis of the deposited data

Results flagged for a closer look

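For 3 of the 20 imprinted genes measured in both kinds of library, the whole-cell and pulldown state ratios lay on opposite sides of 0 with both intervals leaving out 0. The same was seen for 12.96% of 10366 genes measured in both. The pulldown-minus-whole-cell difference on the log2 scale was 0.60 for H13, -0.57 for Plagl1 and 1.48 for Herc3. With 1 library a group the difference was not tested. For H13 and Herc3 the AF357425-High library was the lower in whole-cell RNA and the higher in the pulldown, and for Plagl1 the reverse held. By library totals the 3 differences were 0.24, -0.93 and 1.12. The pulldown intervals of H13 (-0.0044 to 0.25) and Herc3 (-0.07 to 1.2) then crossed 0. The signs of the 3 genes stayed opposite in all 4 scalings. Both intervals left out 0 in all 4 scalings for Plagl1 and in 3 of 4 for H13 and Herc3.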

How the results depend on the processing

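In whole-cell RNA, 0 genes passed the line under all 5 alternatives and the median stayed between -0.04 and 0.07. In the pulldown, library totals gave a median of -0.37 and 1 gene past the line downward, beside 608 of all 10736 measured genes. The other 4 alternatives gave 0. Of the 20 pulldown ratios, 14 lay outside their TMM interval with library totals and 5 changed sign: Impact, Kcnq1ot1, Mest, Commd1 and Ppp1r9a.

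For pulldown against whole-cell RNA in AF357425-High, the median was -0.0926 with TMM, -0.0349 with median-of-ratios factors, -0.49 without mt-Rnr1 and mt-Rnr2, -0.32 without the 20 most abundant genes, -1.64 at a mean of at least 5 CPM and -1.66 without a filter. In AF357425-Low it was 0.0345, 0.0828, -0.0783, -0.0272 and -1.01 under the first 5. Genes past the line downward in both states were 6 with TMM or median-of-ratios factors and 7 with either reduced total. Upward there were 2 with TMM or median-of-ratios factors and 1, H19, otherwise. The shares of all measured genes, 59.7% downward and 1.56% upward, are by library totals and do not apply to these scalings. Counts and medians under these scalings are given without those of all genes. They therefore do not show whether the imprinted genes differ from all genes. Peg3 in AF357425-High turned to 0.23 with TMM and 0.29 with median-of-ratios factors. The change of the ratio had a median of -0.43 with library totals. A common scaling factor moves all genes alike, by construction.

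No paired analysis was possible because each group has 1 library. For the same reason no replicate was left out. Depth limits 13 genes under 1 CPM in whole-cell RNA and 17 in the pulldowns.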
